A study of Mus musculus with 2 samples.

Results

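The genes described here are 4 Zic transcription factor genes (Zic1, Zic2, Zic4 and Zic5) and 3 genes of meningeal transport and carriage (Ptgds, Crabp2 and Slc6a13). The choice was made by name, with earlier results of these data known. Of these 7 genes, 6 had a target among the 23930 amplicon targets of the panel, and no value for Zic5 was used here. They were read in 2 libraries of whole-tissue RNA from the coronal, sagittal and lambdoid sutures of wildtype mouse pups at postnatal day 3, called library 1 and library 2 after the number in their titles. Both belong to 1 group and carry the same batch number, 1, so the data give levels and the spread between libraries, and no contrast of conditions. Suture stem cells are the labelled cell type, but the protocol describes extraction from tissue without a sort, so the values are those of whole tissue, in which fewer cells of a type and less RNA per cell cannot be told apart. The sources do not say if each library stands for its own pup or pool, so the spread between them may be technical.

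Zic proteins are zinc finger transcription factors related to the Gli proteins. They are known from the dorsal neural tube, the cerebellum and the meninges, and mice or people lacking some of them have malformations of the brain and its coverings. In the meninges, the membranes between the brain and the skull, Ptgds makes prostaglandin D2 and is secreted into the cerebrospinal fluid as a carrier of small lipophilic molecules. Crabp2 carries retinoic acid to its nuclear receptors, and Slc6a13, also called GAT2, takes up GABA and taurine at the meninges and in kidney and liver. The dura, the outermost meningeal layer, lies directly under the sutures, so meningeal RNA can be present in a dissected suture.

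Zic1 and Zic4 lie side by side on chromosome 9 in opposite directions, as do Zic2 and Zic5 on chromosome 14. In the GENCODE M21 annotation of mm10, Zic1 spans 91358058 to 91365810 on the minus strand and Zic4 91362413 to 91389348 on the plus strand. These spans overlap by 3398 bases, of which 60 are exonic in both genes. Zic2 spans 122475435 to 122479852 on the plus strand of chromosome 14, and 9757 bases separate it from Zic5 (122456795 to 122465677, minus strand). Ptgds lies on chromosome 2 from 25466709 to 25470046, Crabp2 on chromosome 3 from 87948666 to 87953376 and Slc6a13 on chromosome 6 from 121300227 to 121337733. Neither the position of each amplicon within its gene nor the use of strand in counting was given in the labels or the table. Whether the Zic1 or Zic4 amplicon falls where the genes overlap, or in sequence that Zic paralogs share, was not tested.

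The 250 bases before the start sites of 4 members are shown because these are the neighbours on chromosome 9, of which Zic1 was well read and Zic4 hardly, and the carrier and transporter genes whose ratio moved most between libraries among pairs without Zic4. RefSeq promoter entries (GRCm38.p6) were found for 5 of the 7 genes. Their start sites are not those of the GENCODE spans above. The Zic4 and Ptgds windows lie wholly inside those spans, and the Zic1 and Slc6a13 windows partly. Capitals mark the CCAAT box (its own letters), the GC box (letters GGGCGG), the E-box (letters CACGTG) and a TATA-like run (letters ATAAATA), searched on both strands. The TATA box (letters TATAAA) and a core reported for Zic proteins (letters CAGCAGG) were searched as well. None of these motifs overlapped another in the windows shown.
Zic1 promoter, chr9:91365769-91366018 (- strand): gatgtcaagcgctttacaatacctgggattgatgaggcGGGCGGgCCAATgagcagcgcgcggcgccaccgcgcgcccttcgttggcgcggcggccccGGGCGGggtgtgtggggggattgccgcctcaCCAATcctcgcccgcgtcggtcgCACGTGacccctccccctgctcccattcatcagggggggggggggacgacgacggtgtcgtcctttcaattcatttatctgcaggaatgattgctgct
Zic4 promoter, chr9:91368722-91368971 (+ strand): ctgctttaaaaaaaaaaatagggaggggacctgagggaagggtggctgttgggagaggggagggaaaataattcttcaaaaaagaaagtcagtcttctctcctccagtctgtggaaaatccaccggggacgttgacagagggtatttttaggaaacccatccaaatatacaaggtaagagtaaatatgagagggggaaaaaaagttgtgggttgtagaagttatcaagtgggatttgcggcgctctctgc
Ptgds promoter, chr2:25469750-25469999 (- strand): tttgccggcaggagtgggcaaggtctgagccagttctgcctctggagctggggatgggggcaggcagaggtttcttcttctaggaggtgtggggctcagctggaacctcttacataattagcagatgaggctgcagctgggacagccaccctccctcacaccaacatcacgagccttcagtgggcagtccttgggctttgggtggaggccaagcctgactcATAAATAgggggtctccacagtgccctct
Slc6a13 promoter, chr6:121300038-121300287 (+ strand): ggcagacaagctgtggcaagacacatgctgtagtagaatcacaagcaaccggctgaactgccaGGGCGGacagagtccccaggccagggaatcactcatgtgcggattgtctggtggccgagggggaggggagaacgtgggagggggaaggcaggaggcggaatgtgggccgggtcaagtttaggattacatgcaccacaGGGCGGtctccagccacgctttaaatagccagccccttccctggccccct
The Zic1 window held the CCAAT box and the GC box each at 2 places and the E-box at 1 place, from -98 to -93 relative to the start site. It held 27 CpG dinucleotides, and 8.56% of the 32851 mouse promoter windows of this length held as many. The RefSeq start site used for Zic4 lies 3204 bases from that used for Zic1. In the Zic4 window there were 4 CpG and none of the letters searched. The Ptgds window held 2 CpG and the TATA-like run from -29 to -23. These letters were added to the search after the sequence had been read. The window at the outermost of 3 Slc6a13 start sites held 9 CpG and the GC box at 2 places. Among all windows, the CCAAT box occurred in 33.8%, the GC box in 32.7%, the E-box in 6.02%, the TATA-like run in 5.17%, the TATA box in 12.4% and the Zic core in 8.44%. The TATA box and the Zic core were in none of the 4 windows shown. Such matches describe the sequence and do not show that a factor binds there.

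Zic1 gave the most reads of the Zic members in both libraries. It was read at 39.6 CPM (counts scaled to the library total) in library 1 and 99.9 CPM in library 2, from 224 and 1578 reads. Its mean was 69.7 CPM ± 42.6 (SD, n = 2). Exact 95% Poisson intervals, which cover counting error only, ran from 34.5 to 45.1 CPM in library 1 and from 94.99 to 105 CPM in library 2. The libraries were thus further apart than counting error allows. Among the 23930 targets Zic1 ranked 4227 in library 1 and 1669 in library 2.

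Zic2, the gene mutated in a human form of holoprosencephaly, came next at 17.8 CPM in library 1 and 28.4 CPM in library 2 (mean 23.1 CPM ± 7.44, SD, n = 2). Library 2 was again the higher, by less than for Zic1. Zic4, the neighbour of Zic1, gave 5 reads in each library, which is 0.883 CPM in library 1 and 0.316 CPM in library 2 because library 2 was sequenced more deeply. Its intervals, 0.287 to 2.06 CPM and 0.103 to 0.738 CPM, overlapped. Zic4 was the only measured member that did not reach 1 CPM in both libraries, and its values lay close to what 0 reads would still allow, which is 3 reads, or 0.530 CPM in library 1 and 0.190 in library 2.

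**Figure D1:**
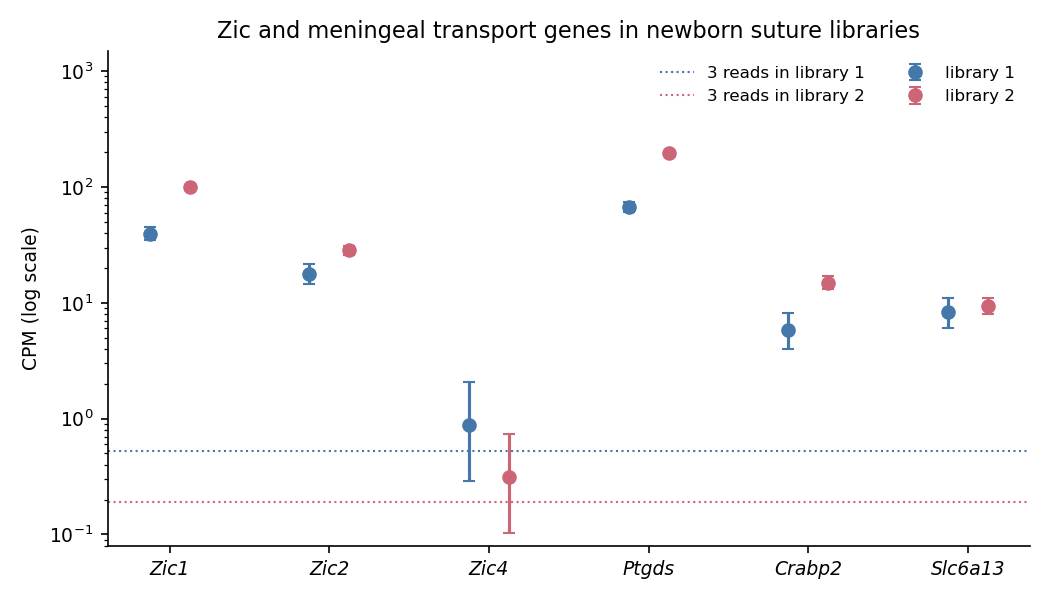
CPM on a log axis of the 6 measured members in library 1 and library 2, with exact 95% Poisson intervals of the reads as bars and dotted lines at the CPM worth of 3 reads in each library. Zic1, Zic2, Ptgds and Crabp2 lie higher in library 2 with intervals that do not overlap, whereas Slc6a13 (8.30 and 9.43 CPM) lies at like levels and Zic4 is near the dotted lines.

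Among the 3 measured Zic members the reads were led by Zic1 in both libraries. Zic1 took 67.9% of their 330 reads in library 1 (exact binomial 95% interval 62.5 to 72.9) and 77.7% of their 2031 reads in library 2 (75.8 to 79.5). Zic2 took 30.6% (25.7 to 35.9) and 22.1% (20.3 to 23.9). The share of Zic1 was higher in library 2 and that of Zic2 lower, with intervals that did not overlap in either case. Zic1 reads outnumbered Zic2 reads 2.22 to 1 in library 1 (interval 1.75 to 2.83) and 3.52 to 1 in library 2 (3.17 to 3.92). Zic1 outnumbered its neighbour Zic4 44.8 to 1 in library 1 (18.9 to 139) and 316 to 1 in library 2 (135 to 973). Each amplicon has its own efficiency, so such ratios compare reads and do not order the expression of different genes. Amplicon reads do not grow with gene length, and the panel reads 1 short target per gene.

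Ptgds gave the most reads of the members. It stood at 67.6 CPM in library 1 and 198 CPM in library 2 (mean 133 CPM ± 92.1, SD, n = 2), with intervals of 61.0 to 74.8 and 191 to 205 CPM. It ranked 2571 among all targets in library 1 and 656 in library 2. Crabp2, the retinoic acid carrier, was at 5.83 and 14.9 CPM (mean 10.4 CPM ± 6.44, SD, n = 2), from 33 and 236 reads. Both genes were thus higher in library 2. Slc6a13 was at 8.30 and 9.43 CPM (mean 8.86 CPM ± 0.799, SD, n = 2), from 47 and 149 reads, and its intervals of 6.10 to 11.04 and 7.98 to 11.1 CPM overlapped. In read numbers Slc6a13 and Crabp2 changed places, with Crabp2 at 0.702 reads per Slc6a13 read in library 1 (0.436 to 1.12) and 1.58 in library 2 (1.28 to 1.96). Their order was therefore not resolved in library 1. The 3 leading members, Ptgds, Zic1 and Zic2, came in the same order in both libraries and were those at 10 CPM or more in both.

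Between the libraries, 3 of the 6 measured members differed past 2-fold on the log2(CPM + 1) scale, all of them higher in library 2, and 0 were past 2-fold higher in library 1. Among all targets 7.12% lay past 2-fold higher in library 2 and 4.64% past 2-fold higher in library 1, and the shares were 7.89% and 7.27% among targets averaging at least 10 CPM. With 6 genes chosen with earlier results known, these counts describe the members and are no test. Ptgds differed by 1.54 on this scale, Zic1 by 1.31 and Crabp2 by 1.22. In CPM the fold of library 2 over library 1 was 2.93 for Ptgds (exact 95% interval 2.63 to 3.26), 2.52 for Zic1 (2.19 to 2.92) and 2.56 for Crabp2 (1.78 to 3.81). Zic2 was 1.59-fold higher in library 2 (1.28 to 1.99). Slc6a13 was 1.14-fold higher, with an interval from 0.814 to 1.61 that held 1. Zic4 differed the other way, 2.79-fold higher in library 1, with an interval from 0.642 to 12.1, so its difference was not detectable at this depth.

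Differences as large as those of Ptgds and Zic1 were uncommon among genes of like level, and those as large as for Zic2, Slc6a13 and Zic4 were common. Of the 2234 targets within 2-fold of the mean level of Ptgds, 2.91% had an absolute log2 difference as large. The share was 5.68% of 3712 targets for Zic1, 14.3% of 4248 for Crabp2, 35.7% of 4971 for Zic2, 83.1% of 4054 for Slc6a13 and 41.9% of 2716 for Zic4. An exact two-sided binomial test on reads recovered from the CPM steps (Benjamini-Hochberg adjustment, all targets) called 4 of the 6 members higher in library 2 (Zic1, Zic2, Ptgds and Crabp2) and 0 higher in library 1. It called 20.0% of all targets higher in library 2 and 17.1% higher in library 1, and 37.0% and 32.5% of those averaging at least 10 CPM. Its adjusted p was 2.96e-112 for Ptgds, 7.11e-46 for Zic1, 1.39e-07 for Crabp2, 5.85e-05 for Zic2, 0.741 for Slc6a13 and 0.293 for Zic4. This test compares the reads of 2 libraries, not conditions, and holds counting error only. Over the 5 members averaging at least 1 CPM the median log2 difference was 1.22, against 0.07 over the 14097 targets at that level, and over all 6 members it was 0.93.

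**Figure D2:**
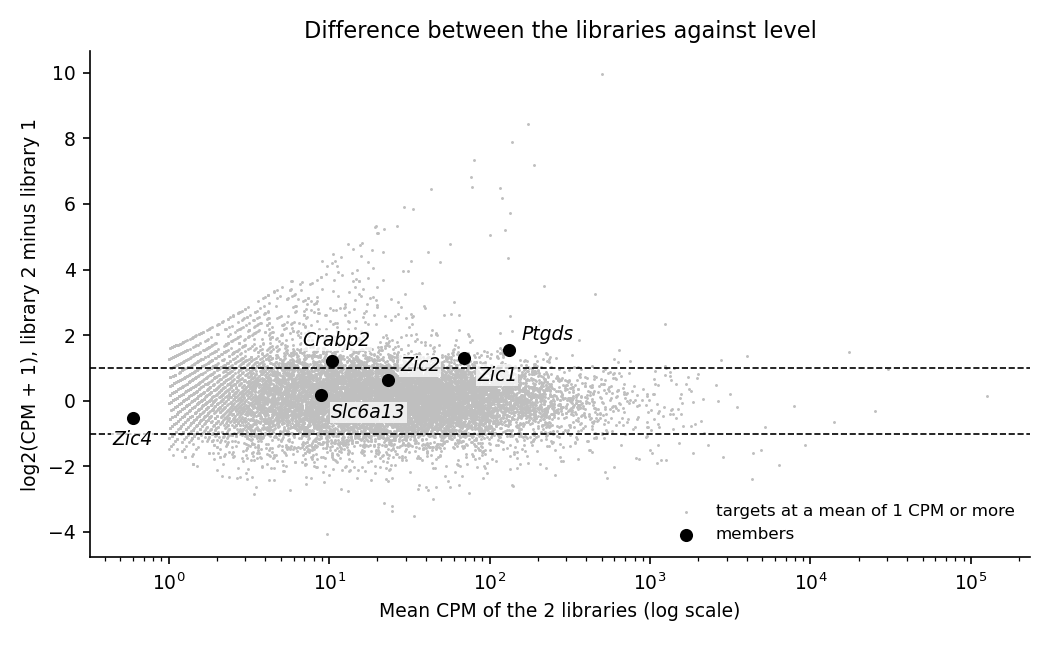
Difference in log2(CPM + 1), library 2 minus library 1, against mean CPM on a log axis, with grey points for targets averaging at least 1 CPM, black points for the 6 members and dashed lines at 2-fold. Ptgds (1.54), Zic1 (1.31) and Crabp2 (1.22) lie above the upper line, while Zic2, Slc6a13 and Zic4 lie between the lines.

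The read ratio of a pair of members was compared between the libraries, since library totals and amplicon efficiencies cancel in that comparison. Of the 15 pairs, 8 moved past 2-fold between the libraries, and 5 of these involved Zic4 with its 5 reads in each library. The other 3 were the pairs of Slc6a13 with Ptgds, Crabp2 and Zic1. Ptgds reads per Slc6a13 read went from 8.15 in library 1 to 20.99 in library 2, a movement of 2.58-fold (exact 95% interval 1.78 to 3.67). For Crabp2 and Slc6a13 it was 2.26-fold (1.34 to 3.81), and for Zic1 and Slc6a13 2.22-fold (1.52 to 3.20). Slc6a13 thus differed less than these 3 genes between the libraries. It was not set apart from Zic2, whose reads per Slc6a13 read moved 1.40-fold (0.922 to 2.10). In Fisher's exact test, two-sided and adjusted over the 15 pairs, 10 pairs were called, 6 of them without Zic4. Its adjusted p was 0.0035 for Crabp2 with Slc6a13. The same shares over pairs of other targets were not computed, so these counts of pairs only describe the members.

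Zic1, Ptgds and Crabp2, the 3 members past 2-fold, kept closer ratios to each other. A movement of this kind is the fold of 1 gene divided by that of the other. These ratios therefore restate the folds given above and add no separate evidence. The ratio of Zic1 to Ptgds was 0.585 in library 1 and 0.504 in library 2, a movement of 0.863 (0.721 to 1.03). That of Zic1 to Crabp2 was 6.79 and 6.69 (0.985, interval 0.645 to 1.47), and that of Ptgds to Crabp2 was 11.6 and 13.3 (1.14, interval 0.756 to 1.68). All 3 intervals held 1, and they leave room for movements of up to 1.68-fold. Zic2 went less far than Zic1, since Zic1 reads per Zic2 read moved 1.59-fold (1.21 to 2.07, adjusted p = 0.0020 in Fisher's exact test). With 2 libraries each gene has a single difference, so genes of like pattern cannot be told from any others that were higher in library 2. Of 9192 targets averaging at least 10 CPM, 207 (2.25%) had a difference between those of Crabp2 and Ptgds.

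**Figure D3:**
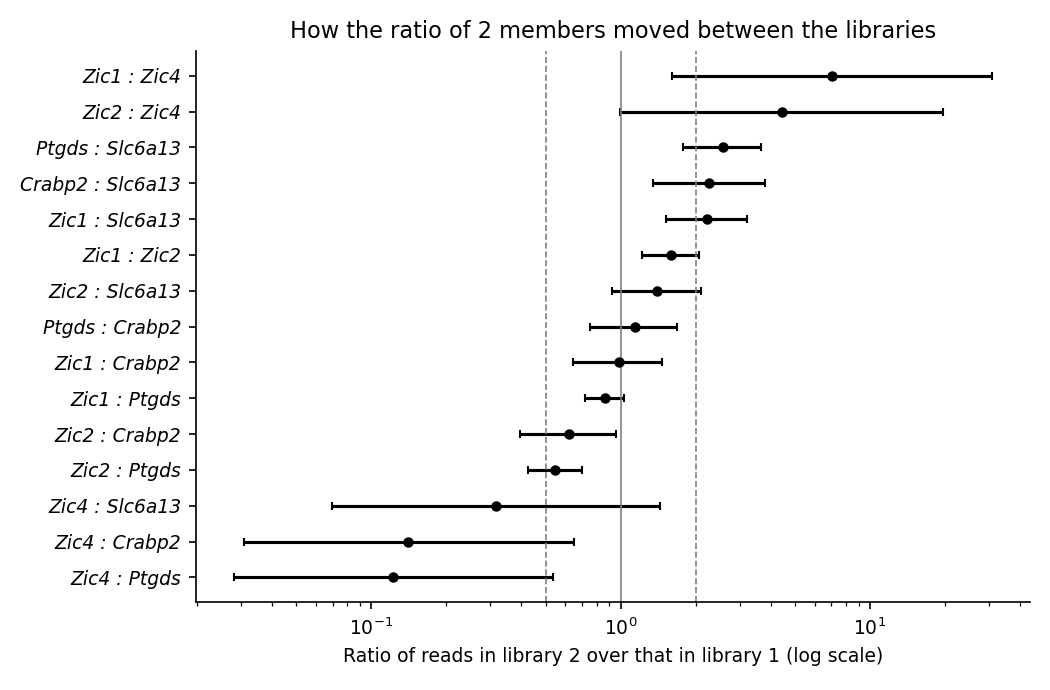
Ratio of the reads of 2 members in library 2 over that in library 1, on a log axis, for the 15 pairs, with exact 95% conditional intervals, a solid line at 1 and dashed lines at 2-fold in either direction. The pairs of Slc6a13 with Ptgds, Crabp2 and Zic1 lie to the right of 2, the pairs among Zic1, Ptgds and Crabp2 have intervals that hold 1, and the pairs with Zic4 have the widest intervals.

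The related zinc finger genes gave a mixed picture. Of the 10 measured genes of the Zic, Gli and Glis families, 8 reached 1 CPM in both libraries, and 2, Zic1 and Gli2, were past 2-fold higher in library 2. For this and every list below, the shares over all targets stand beside the counts. They were 55.0% at 1 CPM or more in both libraries, 7.12% past 2-fold higher in library 2 and 4.64% past 2-fold higher in library 1. The median difference of a list was taken over its genes averaging at least 1 CPM. Glis2 was the highest at 88.6 and 123 CPM, and Gli3, which codes for the main repressor of Hedgehog targets, was at 65.5 and 59.9 CPM. Gli1, a Hedgehog target, was at 32.0 and 64.4 CPM and Gli2, an activator of the pathway, at 12.0 and 37.9 CPM. Glis3 was at 3.89 and 2.66 CPM, and Glis1 gave 0 reads in library 1 and 9 in library 2. In reads, Zic1 came after Glis2 and Gli3 in library 1 and after Glis2 alone in library 2.

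Transcription factors known from the meninges and the skull mesenchyme were all detected, 6 of 6. Foxc1, a forkhead gene needed for meninges and skull vault to form, was at 26.0 and 34.3 CPM. Foxd1, also a forkhead gene of meningeal cells, was at 27.7 and 18.9 CPM and thus higher in library 1. En1, a homeobox gene of skull mesenchyme, was at 9.36 and 22.3 CPM, a 2.38-fold difference (1.78 to 3.24). En1 and Lmx1b (5.83 and 19.9 CPM) were the 2 past 2-fold, both higher in library 2, and the median difference of the list was 0.39. Meningeal layer markers were detected in 9 of 10 cases, and 1 of them, Igfbp2 (83.0 and 178 CPM), was past 2-fold. The highest, Mgp, an inhibitor of mineralization that cartilage also expresses, was at 990 and 703 CPM, and Fxyd5, a regulator of the sodium pump, at 123 and 101 CPM. Aldh1a2, the retinoic acid synthesis enzyme of meningeal cells, was at 17.8 and 21.5 CPM, and Wnt6 gave 0 reads in library 1 and 1 in library 2. The median difference of the 9 layer markers averaging at least 1 CPM, 0.26, was below the differences of Zic1, Ptgds, Crabp2 and Zic2 (0.64). It was above those of Slc6a13 (0.17) and Zic4 (-0.52).

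The barrier of the arachnoid, the middle meningeal layer, rests on junction proteins, of which 7 of 8 were detected and 4 were past 2-fold higher in library 2. Gja1, a gap junction connexin, was highest at 351 and 335 CPM, and Tjp1, a scaffold of tight junctions, stood at 117 and 143 CPM. Cdh1, the cadherin of epithelia and of arachnoid barrier cells, went from 4.24 to 44.2 CPM, a 10.4-fold difference (6.96 to 16.4). Cldn11, a claudin of arachnoid and myelin, was at 9.18 and 26.6 CPM, 2.90-fold (2.17 to 3.95). Gjb6 gave 0 reads in both libraries. The median log2 difference of the junction genes averaging at least 1 CPM was 1.20, beside 1.22 for the members at that level. Medians at that level were also 1.19 for the oligodendrocyte list and 1.34 for the neuron list described below. The junction median was the value of Ocln, from 8 and 72 reads. Gjb2, from 14 and 199 reads, was past 2-fold as well, whereas Gja1, Tjp1 and Dpp4 were not. Dpp4, a surface peptidase of arachnoid barrier cells and other fibroblasts, was at 13.8 and 14.7 CPM.

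Other transporters of the meningeal barrier were detected in 10 of 12 cases and had a median level of 5.48 CPM. Abcc4, an exporter of organic anions, was at 25.6 and 57.2 CPM, a 2.23-fold difference (1.87 to 2.68), and was the highest in library 2. Abcg2, an efflux pump and the highest in library 1, was at 37.3 and 29.0 CPM, and Slc47a1, an exporter of organic cations, at 14.7 and 14.0 CPM. Of the 12, 4 were past 2-fold higher in library 2 and 0 past 2-fold higher in library 1, and the median log2 difference was 0.16. Slc22a2, an organic cation transporter, gave 0 reads in library 1 and 74 in library 2. Slc6a20a, a transporter of proline and betaine, was at 7.95 and 15.9 CPM.

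Around Slc6a13, the related carriers were led by Slc6a6, the taurine transporter, at 123 and 332 CPM (2.71-fold, interval 2.50 to 2.94). Slc6a8, which carries creatine, was at 80.7 and 137 CPM. Slc6a11, a GABA transporter of astrocytes, was the member of this list past 2-fold higher in library 1, at 35.1 and 16.3 CPM. Slc6a12, a betaine and GABA transporter, was read 2 and 7 times. The list also held Gad1 and Gad2, enzymes that make GABA and are not carriers. Of its 7 genes with a target, 6 were detected, Gad1 and Gad2 among them, and 1 was past 2-fold in each direction.

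The other genes of the prostaglandin pathway gave fewer reads than Ptgds. All 9 had a target and 7 were detected, with a median of 5.24 CPM and a median difference of 0.07. Ptgs1, the constitutive cyclooxygenase, was at 19.8 and 20.8 CPM, and Slco2a1, which takes prostaglandins up, at 27.7 and 32.5 CPM. Hpgd, which degrades prostaglandins, was at 15.7 and 23.1 CPM. Hpgds, the prostaglandin D2 synthase of blood cells, stood at 4.59 and 4.37 CPM. The 2 genes past 2-fold, both higher in library 2, were Ptges, a prostaglandin E synthase, at 1.24 and 9.24 CPM, and Ptgdr, a prostaglandin D2 receptor, at 0.353 and 2.34 CPM. The other D2 receptor, Ptgdr2, was at 1.24 and 1.08 CPM.

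Among retinoid genes, 13 of 15 were detected and 2 were past 2-fold, both higher in library 2. These were Stra6, which takes up retinol, at 8.65 and 32.6 CPM and Aldh1a1, a retinaldehyde dehydrogenase, at 4.59 and 22.0 CPM. The receptors Rara and Rarg were highest, at 152 and 179 CPM and at 89.7 and 140 CPM, followed by Dhrs3, a retinaldehyde reductase, at 80.0 and 102 CPM. Crabp1, the paralog of Crabp2, was at 3.89 and 1.65 CPM, from 22 and 26 reads. Crabp2 gave more reads than Crabp1 in both libraries. In library 1 their intervals (4.01 to 8.18 and 2.43 to 5.88 CPM) overlapped, so their order was not resolved there. The pair differed between the libraries in opposite directions. Over the 14 genes of the list averaging at least 1 CPM the median difference was 0.30, beside 1.22 for Crabp2.

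**Figure D4:**
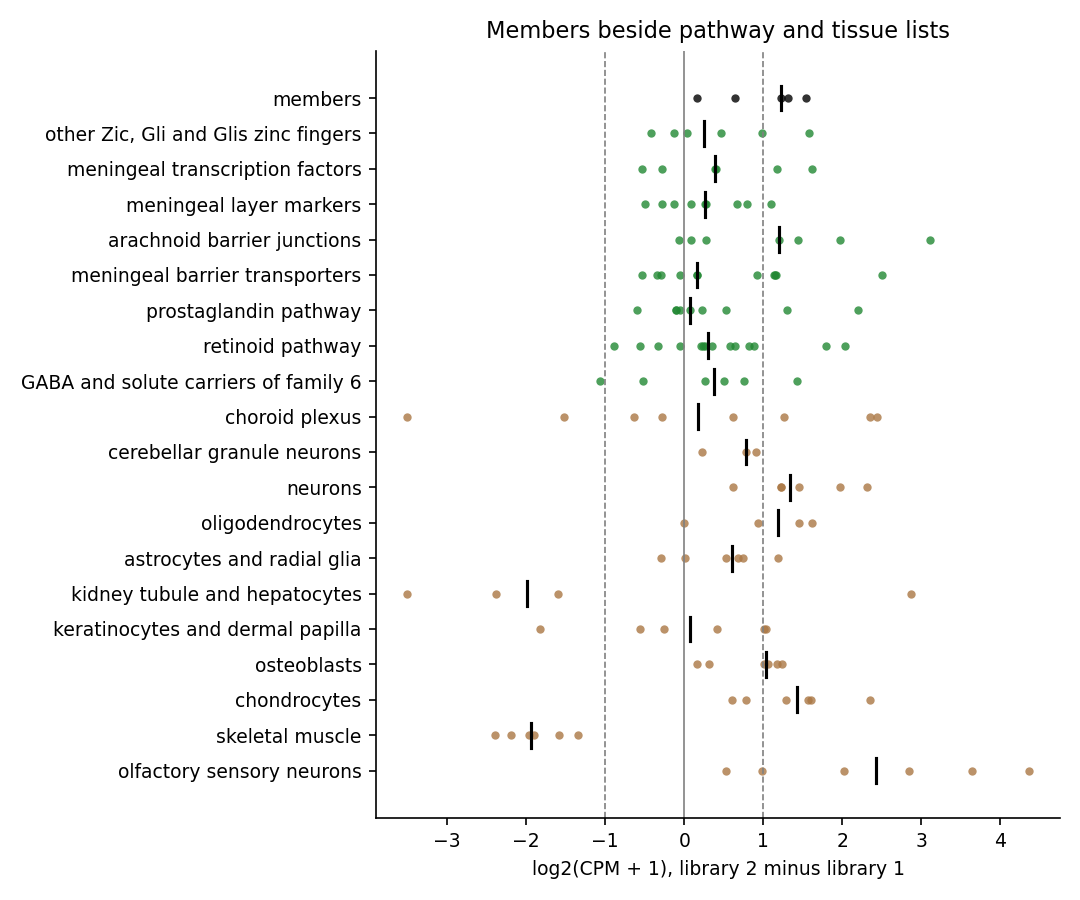
Difference in log2(CPM + 1), library 2 minus library 1, for the 5 members averaging at least 1 CPM (black), for 8 family, pathway and barrier lists without the members (green) and for 11 lists of other tissues (brown), with 1 point per gene at that level, bars at the medians and dashed lines at 2-fold. The members reach from 0.17 to 1.54, and the medians of arachnoid junction, neuron, oligodendrocyte, osteoblast, chondrocyte and olfactory neuron genes lie above 1 as theirs does, while all 6 skeletal muscle genes lie below -1.

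The libraries also differed in markers of other tissues, several of which express members. Zic1 and Zic2 are known from cerebellar granule neurons, and of 5 markers of these cells 3 were detected, with a summed level of 14.7 CPM in library 1 and 23.9 in library 2, with Gabra6 at 0 reads in both. General neuron genes were all detected, 6 of 6, and summed to 180 and 676 CPM, led by Tubb3 (67.1 and 338 CPM), Stmn2 (63.7 and 176 CPM) and Nefl (29.8 and 120 CPM). Oligodendrocytes are a known source of Ptgds. Of their markers 4 of 6 were detected and the sum went from 92.0 to 255 CPM, with Mbp at 68.9 and 213 CPM and Olig1 at 8.12 and 8.10 CPM, while Mog, their defining myelin protein, was at 0.177 and 0.380 CPM. Mbp is also a gene of Schwann cells. Astrocyte and radial glia genes summed to 79.3 and 106 CPM with 6 of 6 detected, led by Slc1a3 (41.8 and 42.1 CPM), Fabp7 (16.4 and 24.2 CPM) and Aqp4 (9.71 and 23.3 CPM). The part of these cells in the levels and differences of the members was not tested.

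Bone and cartilage genes were higher in library 2 as well. Osteoblast genes were detected in 6 of 6 cases, with 4 past 2-fold and a median difference of 1.04, led by Col1a1, Spp1 (1655 and 3888 CPM) and Ibsp (386 and 873 CPM). Chondrocyte genes summed to 1076 and 3580 CPM, with 4 of 6 past 2-fold, led by Col2a1 (407 and 2078 CPM), Acan (344 and 840 CPM) and Matn1 (148 and 256 CPM). Olfactory sensory neuron genes, from a tissue that is not suture, went from a sum of 113 CPM to 521 CPM, with Omp at 11.1 and 247 CPM, Adcy3 at 72.9 and 145 CPM and Gnal at 9.01 and 70.5 CPM. Skeletal muscle genes went the other way, from 39216 to 11878 CPM, with 6 of 6 past 2-fold higher in library 1 and Mylpf, Acta1 and Myh8 highest. Of 6 keratinocyte and dermal papilla genes, a site where Crabp2 is also known, 5 were detected, led by Sox18, which vessels express too (24.9 and 51.3 CPM), Krt15 (30.2 and 40.5 CPM) and Krt5 (19.8 and 41.4 CPM). Krt14 went the other way, at 22.2 and 5.57 CPM, and the median log2 difference of this list was 0.08. The difference of Zic1, Ptgds and Crabp2 thus had the same direction as those of bone, cartilage, nerve and olfactory genes, and the part of tissue make-up in it was not tested.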

How the data were processed

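Total RNA of 2 suture libraries was read with the Ion AmpliSeq mouse transcriptome panel, per the labels' protocols. The submitters' processing notes name the build mm10 but no aligner, counter or filter. The deposited values are CPM, which the authors had scaled to each library's total. All values above 0 (100% in both libraries) were whole multiples of 1 step, within 0.01 of a read, so reads were recovered, 5663344 in library 1 and 15802610 in library 2. Of 23930 targets, 13157 reached 1 CPM in both. Without molecular identifiers, intervals and limits hold counting error alone.

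Differences were taken on log2(CPM + 1) and called past 2-fold. With 1 library on each side, this call has no test, and the binomial and Fisher tests on recovered reads (scipy 1.17.1, threshold 0.05) compare libraries. The binomial test was checked on simulated reads that held counting error only, so the check does not cover other spread between libraries. The binomial test on recovered reads called 8863 of the 23930 targets. The 7 members and the 19 lists (148 genes, 143 with a target) were chosen with earlier results of these data known. Named genes were all members, the Zic, Gli and Glis genes and the 3 highest of each list, of which some are not reported here though list counts hold them; others were named after their values were seen. A date stood in place of 27 symbols, restored from target names. Promoter letters came from RefSeq (GRCm38.p6).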

Additional observations from a re-analysis of the deposited data

How the results depend on the processing

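The member levels moved by less than 1 SD under both other scalings. That outcome was largely set in advance, since both scalings kept the mean scale factor of the libraries. The SD also holds the gap between the libraries, so the comparison says little about the levels. The scalings shifted the log2 difference of the libraries by -0.04 (median-of-ratios size factors) and 0.03 (totals without the 10 highest targets). Without library 1 or library 2, each level is that of the other library. The number of members past 2-fold higher in library 2, 3 as reported, ran from 2 with a pseudocount of 5 CPM, where Crabp2 was no longer past the threshold, to 4 at a 1.5-fold threshold, and 0 were past it toward library 1 in every alternative run. Of 15 pairs, 7 to 11 moved under the alternatives, against 8. With a pseudocount of 5 CPM, the genes of the family, pathway and barrier lists past 2-fold higher in library 2 were 11 in place of 17 of 73 and those higher in library 1 were 0 in place of 1, and in the other tissue lists those higher in library 2 were 17 in place of 26 of 67, since a larger pseudocount shrinks the differences of low genes. No paired analysis was possible because there is 1 group. Differences between the libraries have no value without either library. Depth limits Zic4 (5 reads in each library) and Crabp2 in library 1 (33 reads).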

Other observations

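Choroid plexus genes, which mark another site of Ptgds, did not differ in 1 direction. Of 8 genes, all detected, 3 were past 2-fold higher in library 2 and 2 past 2-fold higher in library 1. Aqp1, a water channel that vessels also express, was at 103 and 159 CPM and Clic6, a chloride channel family gene, at 3.36 and 22.7 CPM. Ttr, the thyroid hormone carrier of choroid plexus and liver, went the other way, with 62.7 CPM in library 1 and 4.62 in library 2.

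Kidney tubule and hepatocyte genes, from organs where Slc6a13 is also known, had a sum of 75.2 CPM in library 1 and 15.4 in library 2. Most of the sum was Ttr in library 1 and Lrp2 in library 2. Of the 7 genes 2 were detected, Slc34a1 gave 0 reads in both libraries and Umod 0 reads in library 1 and 0.190 CPM in library 2. Apoa2 was at 5.47 and 1.14 CPM. Lrp2, an endocytic receptor of several epithelia, went from 0.353 to 8.92 CPM.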
